A study of Mus musculus with 6 samples.

Results

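The natural killer receptor gene complex was taken as the window of mouse chromosome 6 from 128.4 to 130.36 Mb (build mm9), and its members are all mSin3A islands with at least 1 bp inside it. An island is a stretch of enriched ChIP-seq reads as the authors called it. The window held 59 of the 54058 islands in the 4 deposited lists. Of these, 15 came from wild-type (WT) cells in condition 1, 10 from WT cells in condition 2, 18 from deficient cells in condition 1 and 16 from deficient cells in condition 2. The rule uses position only, and no read count chose the members.

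The cells were CD8+ T cells with high surface TCRbeta, sorted from mouse spleen. WT mice were compared with Tcf1-/-Lef1-/- mice, in which CD4-Cre, a recombinase driven by Cd4 sequences and active from the thymus onwards, had removed both transcription factors. For each genotype there was 1 library in condition 1 and 1 in condition 2. The labels give neither the difference between the conditions nor the number or age of the mice. With 1 library per group there are no replicates, and all intervals cover counting error only. The fit given below with condition as a block takes the 2 conditions as repeats, which the labels do not state. Background and copy number in the window are not known, since the 2 input libraries were not used here. The deletion of the 2 targeted genes and the identity of the sorted cells were not checked here, because no gene of the mm9 build could be assigned to an island.

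The complex is a cluster of genes for C-type lectin-like membrane proteins of natural killer cells and other leukocytes. Klrb1 receptors bind Clec2 proteins encoded beside them, Cd69 is an early activation marker of lymphocytes, Klrd1 pairs with Klrc1 or Klrc2 to read a nonclassical MHC class I molecule, Klrk1 (NKG2D) is an activating receptor, and the Klra (Ly49) receptors read MHC class I. Naive CD8 T cells express few of these receptors, whereas Klrk1, Klrd1 and Klrc1 are known from effector and memory CD8 T cells. mSin3A is the scaffold of a histone deacetylase co-repressor complex that other proteins bring to DNA. Tcf1 and Lef1 are related DNA-binding factors of T cell development.

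On the later GRCm38 build, RefSeq lists 76 genes from Klrb1a at one end to Klra1 at the other, 42 of them protein-coding. In that order the Klrb1 and Clec2 genes are interleaved first, with Cd69 near their end, before Clec2m. Clec12a, Clec12b, Clec1b, Clec9a, Clec1a, Clec7a, Olr1 and Gabarapl1 follow. Klre1, Klrd1, Klrk1, Klrc3, Klrc2 and Klrc1 come after these, then Klri1 and Klri2, and 10 Klra genes stand last. Only this order was used. The islands are on mm9 and the annotation is not, so no island is tied to a gene here. No mm9 sequence was used either, so the islands are described by position, length and reads.

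mSin3A islands were found in the first part of the window and were missing from a long stretch at its end in every library. The last island ended at 129299799 in WT condition 1, at 129225599 in WT condition 2, at 129484199 in deficient condition 1 and at 129292999 in deficient condition 2. From there to the end of the window, 1060 kb, 1134 kb, 876 kb and 1067 kb held no island, which is between 44.7% and 57.9% of the window. Beyond the window, the next islands began at 131294801 and 131240601 in WT cells and at 131242201 and 131242401 in deficient cells. Over the 4 lists together, the island-free stretch ran for 1756 kb, of which 876 kb lay inside the window. Stretches at least this long between neighbouring regions numbered 216 of 23490 over all chromosomes and 15 of 1201 on chromosome 6. The 216 together made up 24.1% of the chromosome spans covered by the lists, so the empty end of the window was one of many such stretches. An uncalled stretch is one where no island was listed, and its read number is not known.

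**Figure D1:**
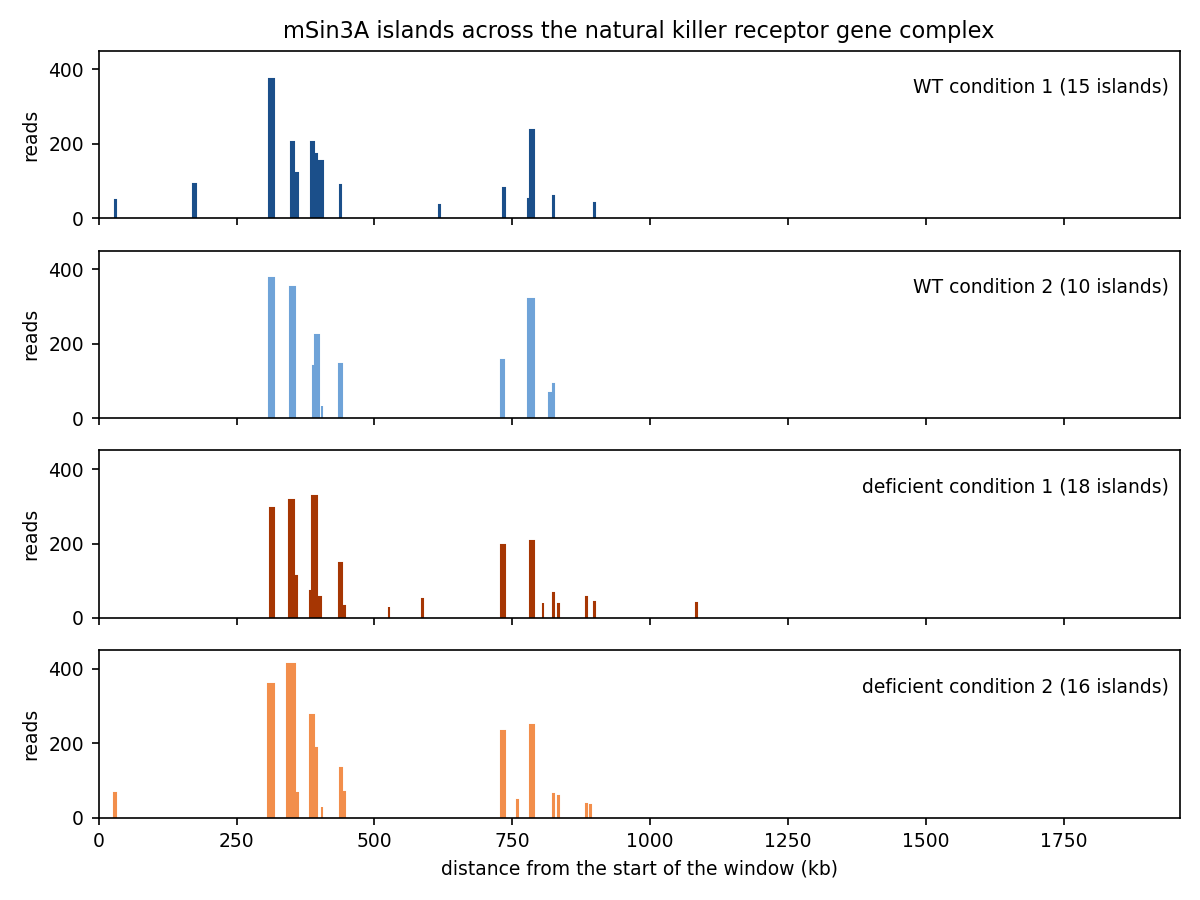
Position of each mSin3A island (horizontal axis, kb from the start of the window) and its read count (vertical axis) in the 4 libraries, 1 panel each. Bars are as wide as the islands plus a thin outline. In every panel the tall islands stand in 2 groups and the end of the window is empty.

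The genes of the complex include close copies, and reads from identical stretches cannot be placed at 1 copy. In the GENCODE transcripts, 39.8% of the 50-base stretches of Klra10, 33.1% of Klra8 and 31.5% of Klra9 also occurred in a transcript of another gene, on either strand. Klra17 shared 0% and Klra5 0.655%, and the median over the 11 Klra genes with transcripts, 1 of them (Klra2) outside the ordered stretch, was 4.68%. In the Klrc family, Klrc1 shared 38.6%, Klrc3 36.3% and Klrc2 16.3%. Klrd1 and Klrk1 shared 0%, and Cd69 shared 0.122%. In the Klrb1 family the share ran from 0% to 27.2%, and in the Clec2 family from 0% to 4.13%. The other C-type lectin genes ran from 0% to 4.02%, and Gabarapl1 shared 23.1%. No share over all genes was computed, so none of these values can be called high or low. Exons alone were compared. A gene that overlaps another at the same place, on either strand, also counts as sharing with it. The shares are therefore not a measure of gene copies or of reads that cannot be placed. How the authors treated reads with several matches is not given in the sources used here, and the part of shared sequence in the empty stretch was not tested.

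Within the window, islands were somewhat more frequent than on the whole chromosome, and they covered more of it. Their number per Mb was 7.65 in WT condition 1, 5.10 in WT condition 2, 9.18 in deficient condition 1 and 8.16 in deficient condition 2. Chromosome 6 as a whole had 4.31, 3.83, 5.27 and 4.62 islands per Mb in the same order. The exact Poisson 95% interval of the window began at 4.28, 2.45, 5.44 and 4.67 islands per Mb. It included the chromosome's rate in both WT libraries, in WT condition 1 only just. In both deficient libraries it excluded that rate by a small margin, so no split by genotype is read from it. Islands cluster, which this interval does not take in. All chromosomes were also cut into 1334 consecutive stretches of the same length. The middle 50% of these held 1 to 14, 1 to 12, 2 to 17 and 1 to 15 islands. The window's 15 islands in WT condition 1 lay just above that range, as did its 18 and 16 in the deficient libraries. Its 10 in WT condition 2 lay inside the range. Islands covered 3.24%, 2.81%, 3.70% and 3.92% of the window, against 1.93%, 2.00%, 2.02% and 2.09% of chromosome 6. The complex sits between unlike neighbours. The stretch of equal length before it held 22, 20, 27 and 16 islands, and the one after it held 1, 1, 2 and 2.

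**Figure D2:**
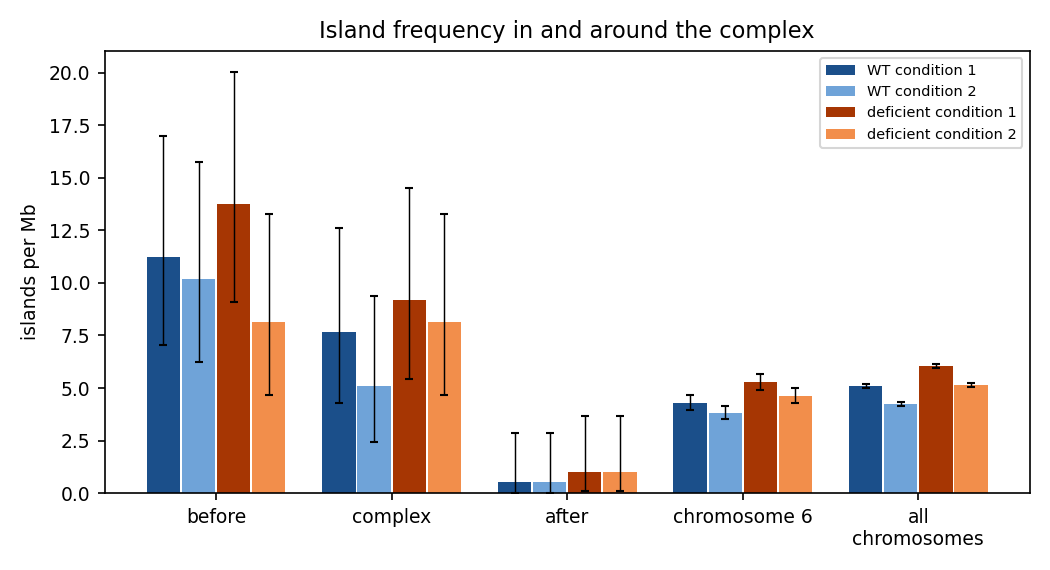
Islands per Mb (vertical axis) in the complex, in stretches of equal length before and after it, on chromosome 6 and on all chromosomes, for the 4 libraries. Whiskers are exact Poisson 95% intervals on the number of islands; the stretch after the complex, with 1 or 2 islands per library, is the lowest group.

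The islands of the 4 libraries merged into 22 regions, numbered R1 to R22 along the chromosome. Regions called in all 4 libraries numbered 8, or 36.4%, where 24% of all 23510 regions were. No region was called in exactly 3 libraries (11% of all regions), and 9 were called in 1 library alone (48.1% of all regions). In both deficient libraries and neither WT library, 3 regions were called, or 13.6%, beside 8.98% of all regions. The opposite pattern, both WT libraries and neither deficient library, was found in 0 regions, beside 2.91% of all regions. With 22 regions, each of these counts differs from the background by only a few regions. The 8 shared regions held 88.8% and 96.4% of the island reads of the window in WT conditions 1 and 2. In deficient conditions 1 and 2 they held 84.6% and 86.3%. The same share over all chromosomes was not computed. Shared regions were rich in reads there too, with medians of 159, 174, 155 and 164 in the same order of libraries. The median single island of each list held 106, 127, 94 and 112 reads. A high share is therefore not read as a trait of the complex.

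Of the 8 shared regions, 5 stood together. R3 to R8 lay within 139 kb, from 128707601 to 128846599, with no gap of more than 50 kb, and R8 is the only one of them not called in every library. In conditions 1 and 2, in that order here and below, the WT libraries had 1321 and 1271 reads in this group and the deficient libraries 1367 and 1535. It contributed between 64.0% and 67.0% of the island reads of the window in each library. Scaled by total island reads, the deficient library held 1.01 times the WT reads in condition 1 (exact 95% interval 0.937 to 1.09) and 1.13 times in condition 2 (1.05 to 1.22). The other group, R12 to R21, spanned 171 kb from 129128801 to 129300199 and held the other 3 shared regions, R12, R14 and R17. The WT libraries had 471 and 635 reads in it and the deficient libraries 648 and 725. The deficient library thus had 1.34 times the WT reads in condition 1 (1.19 to 1.52) and 1.07 times in condition 2 (0.959 to 1.19). With this scaling the interval excluded 1 for each group in 1 condition only. With the median scaling used for the single regions below, the ratios were 1.08 (1.00 to 1.17) and 1.28 (1.19 to 1.38) for R3 to R8, and 1.44 (1.27 to 1.62) and 1.21 (1.09 to 1.35) for R12 to R21, so that all 4 lay above 1, that of R3 to R8 in condition 1 only just.

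R3, R4 and R5 held the most reads of the complex. R3 (128707601 to 128718399) gave 374 and 377 reads in the WT libraries and 296 and 359 in the deficient ones. Both deficient libraries were below both WT libraries before scaling, deficient condition 2 by a small margin that was gone after median scaling. The log2 ratio of deficient to WT, centred on the median of all regions called in every library, was -0.28 (-0.50 to -0.05) in condition 1 and 0.01 (-0.20 to 0.23) in condition 2. R4 (128741801 to 128760599) gave 326 and 352 reads in the WT libraries and 432 and 480 in the deficient ones. Both deficient libraries were above both WT libraries there, and the log2 ratio was 0.47 (0.26 to 0.68) in condition 1 and 0.53 (0.33 to 0.74) in condition 2. R5 (128783001 to 128798799) gave 377 and 364 reads in the WT libraries and 400 and 463 in the deficient ones, again without overlap, with log2 ratios of 0.15 (-0.06 to 0.35) and 0.43 (0.23 to 0.63). Per kb of called length these surpluses were not kept in both conditions: the log2 ratio of density was 0.14 and -0.33 in R4 and -0.36 and -0.02 in R5. The richest island of the window stood at the 96.1st percentile of its list by reads in WT condition 1, the 94.8th in WT condition 2, the 97.0th in deficient condition 1 and the 97.4th in deficient condition 2.

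R12 showed the largest ratio of deficient to WT reads among the shared regions of the complex in both conditions. R12 (129128801 to 129136999) gave 81 and 155 reads in the WT libraries and 197 and 232 in the deficient ones, with no overlap between the genotypes. Its log2 ratio was 1.34 (0.96 to 1.74) in condition 1 and 0.67 (0.37 to 0.97) in condition 2. The WT libraries also differed from each other: condition 2 held 1.77 times the reads of condition 1 after centring, while in deficient cells this ratio was 1.12. Called length moved with the reads, at 3199 and 5599 bp in WT and 7799 bp in both deficient libraries. The density of R12 was 25.3 and 27.7 reads per kb of called length in the WT libraries and 25.3 and 29.7 in the deficient ones. The log2 ratio of this density was -0.01 in condition 1 and 0.11 in condition 2, so the surplus of reads in R12 went with a longer called island at a similar density.

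R14 had fewer reads in the deficient library in both conditions, with intervals below 0 in both. R14 (129178601 to 129188599) gave 287 and 319 reads in the WT libraries and 207 and 249 in the deficient ones, with no overlap. The log2 ratio was -0.41 (-0.67 to -0.15) in condition 1 and -0.27 (-0.52 to -0.03) in condition 2. Islands there spanned 9198 and 9599 bp in the WT libraries and 6799 and 6399 bp in the deficient ones. The density ratios were -0.04 and 0.23 on the log2 scale, so per kb no deficit was left in condition 2.

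The remaining shared regions did not separate the genotypes. R6 (128799801 to 128807199) held 155 reads over 7399 bp in WT condition 1, but 33 reads over 799 bp in WT condition 2, 57 reads in deficient condition 1 and 30 reads in deficient condition 2. One WT library was thus far above the other 3, and the log2 ratio was -1.38 (-1.85 to -0.94) in condition 1 and -0.05 (-0.82 to 0.71) in condition 2. R7 (128836001 to 128841399) gave 89 and 145 reads in the WT libraries and 149 and 133 in the deficient ones. Here WT condition 1 alone was low, and the log2 ratio was 0.80 (0.42 to 1.20) in condition 1 and -0.04 (-0.39 to 0.31) in condition 2. R17 (129223601 to 129225599) gave 61 and 93 reads in the WT libraries and 68 and 63 in the deficient ones, with WT condition 2 the highest. Its called length was the most even of the 8, at 1799 bp in WT condition 1 and 1999 bp in the other 3 libraries. The log2 ratio of reads in R17 was 0.22 (-0.30 to 0.74) in condition 1 and -0.48 (-0.96 to 0.0002) in condition 2. Per kb of called length it was -0.002 and -0.56, and the latter was the lowest of the 16 density ratios.

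**Figure D3:**
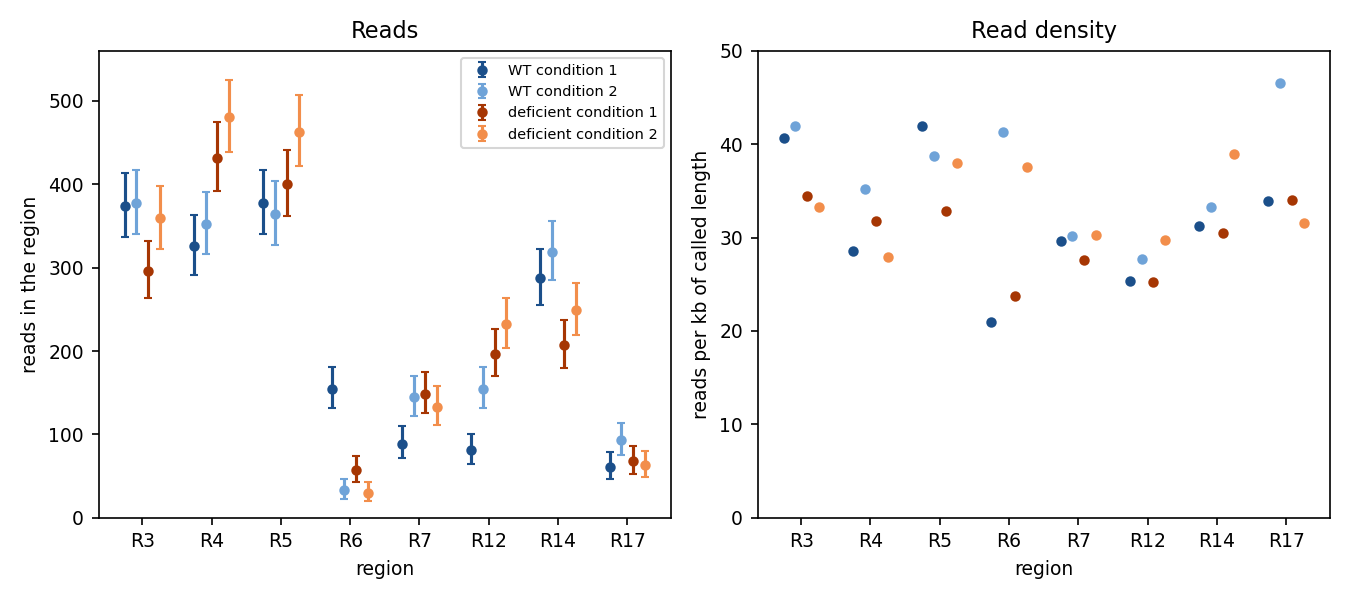
Reads (left, with exact Poisson 95% intervals) and reads per kb of called length (right) in the 8 regions called in all 4 libraries, 1 point per library. Reads of R4, R5 and R12 were higher in both deficient libraries and those of R3 and R14 lower, by a small margin in R3, whereas R12 had similar densities in all 4 libraries.

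No shared region of the complex differed by 2-fold in both conditions, in either direction. Over all 5637 regions called in all 4 libraries, 0.319% had a surplus of at least 2-fold in both deficient libraries and 0.408% a deficit of that size, so 0 of 8 is near this background. The interval of the ratio lay above 0 in both conditions in 2 of the 8 regions, R4 and R12, beside 5.84% of all shared regions, and below 0 in both in 1, R14, beside 7.33%. Intervals on opposite sides of 0 in the 2 conditions were found in 0 of the 8, beside 8.76% of all. With reads scaled by the median ratio, both deficient libraries were above both WT libraries in 3 of the 8 regions (19.1% of all shared regions) and below in 1 (19.8% of all). Scaled by total island reads, these were 3 and 2, beside 8.41% and 31.3% of all shared regions, and R3 was the added one. The median log2 ratio of the 8 regions was 0.18 in condition 1 and -0.01 in condition 2, where the centring sets the median over all shared regions to 0. The standard deviation over all shared regions was 0.50 and 0.52. In an edgeR quasi-likelihood test of genotype over the 5637 shared regions, with condition as a block and 1 residual degree of freedom, 0 of the 8 regions passed a Benjamini-Hochberg adjusted p of 0.05, beside 0.0355% of all. The adjusted p ran from 0.333 for R12, with a log2 fold change of 0.99, to 0.957 for R17. Without adjustment 1 of the 8 passed, R12, beside 7.77% of all. These values missed the threshold, which does not show that the genotypes were alike there.

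**Figure D4:**
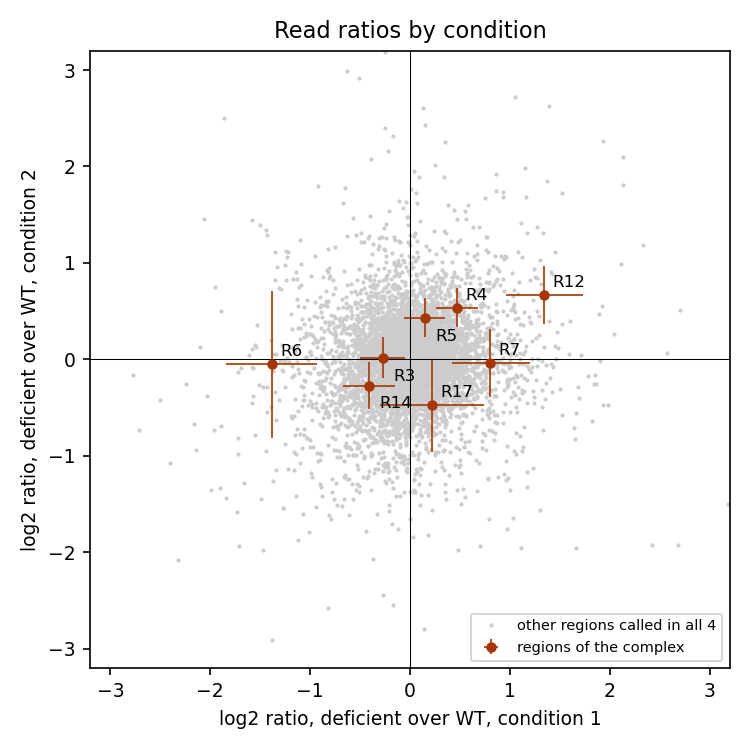
Log2 ratio of reads, deficient over WT, in condition 1 (horizontal) and condition 2 (vertical) for the 8 shared regions of the complex, with exact 95% intervals, over all other regions called in all 4 libraries (grey; 3 lie outside the axes). R12 and R4 lie above 0 on both axes, R14 lies below 0 on both, and R6 and R7 stand away from 0 in condition 1 only.

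The 3 regions called only in deficient cells were weak. R8 (128842001 to 128846599) held 33 and 70 reads in deficient conditions 1 and 2, R18 (129233201 to 129234999) held 37 and 59, and R19 (129283001 to 129285199) held 57 and 38. The median island of the deficient lists held 94 reads in condition 1 and 112 in condition 2, so all 6 values were below it. Reads in WT cells are not known at these places, and no ratio can be given. When islands within 2 kb were joined, R8 became part of the shared region R7. When each list was held to its 11151 richest islands, the complex had 12 regions. Of these, 0 were called only in deficient cells and 1, R6, only in WT cells, beside 7.14% and 4.05% of all regions. WT condition 2 is the shortest list and lost no island by this cut. Its R6 island of 33 reads was kept, while that of deficient condition 1 with 57 reads was dropped. These counts thus follow in part from the cut itself. The 9 regions called in 1 library alone held between 29 and 93 reads. They numbered 2 and 1 in WT conditions 1 and 2, and 4 and 2 in deficient conditions 1 and 2. Over all chromosomes the counts were 3615, 2180, 3446 and 2061 of 11302 in the same order. Deficient condition 1 thus had the most in the complex but not over all chromosomes. R21 was called in both condition 1 libraries only, with 42 reads in each, a pattern of 1.87% of all regions; both condition 2 libraries alone shared 0 regions of the complex, beside 0.749% of all. R1 was called in WT condition 1 and deficient condition 2 only, and such crossed pairs made up 2.48% of all regions.

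Summed over the complex, the ratio of island reads between genotypes depended on the scaling. Condition 1 gave 1971 reads in WT and 2135 in deficient cells, and condition 2 gave 1906 in WT and 2328 in deficient cells. Scaled by total island reads, the ratio of deficient to WT was 1.06 (exact 95% interval 0.995 to 1.13) in condition 1 and 1.14 (1.07 to 1.21) in condition 2. With this scaling only the interval of condition 2 excluded 1. With median scaling the ratios were 1.13 and 1.30, and no interval was computed for these. Covered length was 63.6 and 55.0 kb in WT and 72.6 and 76.8 kb in deficient cells, while the islands averaged 31.0 and 34.7 reads per kb in WT cells and 29.4 and 30.3 in cells without both factors. The larger sums in deficient cells thus went with a longer called length and not with a higher density. A sum over islands called in each library separately moves with how much was called. Bulk chromatin cannot tell apart fewer cells with mSin3A at a place and less mSin3A per cell.

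Islands of the complex met an island of the other genotype about as often as islands did elsewhere. In condition 1, 11 of 15 WT islands (73.3%, Wilson 95% interval 48.0% to 89.1%) met an island of deficient cells, beside 62.2% of the whole list. Of the deficient islands, 11 of 18 (61.1%, 38.6% to 79.7%) met a WT island, beside 54.3%. In condition 2, 9 of 10 WT islands (90.0%, 59.6% to 98.2%) and 9 of 16 deficient islands (56.3%, 33.2% to 76.9%) met one, beside 66.2% and 56.3% of the whole lists. Between the conditions, WT condition 2 met 11 of the 15 islands of WT condition 1 (73.3%), beside 57.4% of the whole list. Deficient condition 2 met 12 of the 18 islands of deficient condition 1 (66.7%), beside 69.1%. Each of the 4 intervals between genotypes included the share of the whole list.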

How the data were processed

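mSin3A ChIP-seq libraries of 2 genotypes in 2 conditions were deposited as 4 island lists. The submitters' processing notes name FastQC, Bowtie2 2.2.5, SICER 1.1 (a caller of broad islands) and mm9. The deposited number per island was taken to be its ChIP read count, from the list's layout and whole-number values, since the files have no header. The count is not scaled for depth or width. No source used here gives SICER's settings, the total depth or any use of the input. Total island counts ran from 1792952 to 1917097 per list.

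Starts are given 1-based (1 was added) and ends as deposited. Overlapping or touching islands of any library formed 1 region. The regions named with all values are those called in all 4 libraries, in 3, or in both libraries of 1 genotype only; the members, gene lists and this rule were chosen with earlier results of these data known. The non-overlap counts and their scalings, the groups of regions with gaps under 50 kb, the equal-length stretches and the shared transcript stretches were added after the data were seen. Log2 ratios were centred on the median over regions called in all 4 libraries (-0.06 in condition 1, -0.09 in condition 2). Ratio intervals are exact (Clopper-Pearson) and shares have Wilson intervals. Counts of regions called in all 4 libraries were also tested for genotype with edgeR 4.0.16 (quasi-likelihood, TMM scaling, condition as a block, Benjamini-Hochberg adjustment), added after the data were seen. Of 43 listed genes, 40 were found in the RefSeq order and 40 in the GENCODE M21 transcripts. Alternatives were other scalings, list lengths, read ranks, island lengths, joining within 2 kb and overlap rules. Functions were tested on simulated data. Python 3.11.15, numpy 2.4.6, pandas 2.3.3 and scipy 1.17.1 were used.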

Additional observations from a re-analysis of the deposited data

Results flagged for a closer look

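R1 (chromosome 6, 128428001 to 128431399) was called with 49 reads in WT condition 1 and with 68 reads in deficient condition 2, and in neither other library, so the call belonged to WT in condition 1 and to deficient cells in condition 2. This pattern or its mirror image was found in 1 of the 22 regions of the complex and in 2.48% of all regions. The difference was not tested, and reads in the other libraries are not known.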

How the results depend on the processing

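Of the window-wide values recomputed under the alternatives, 45 were counted as unchanged and 10 as moved, by a wide rule. Island numbers were identical for islands wholly inside the window. Also counted as unchanged was the covered share in WT condition 1, 3.24% in the full list and 2.23% in its upper 50%. So was the share of WT condition 1 islands met by deficient condition 1, 73.3% as reported and 53.3% under a reciprocal overlap of 50%. The 45 are therefore not a measure of stability. Holding every list to 11151 islands left 9 islands of deficient condition 1 in the window, all of them (100%) met by WT condition 1. The complex then had 12 regions, with 1 called only in WT and 0 only in deficient cells, beside 4.05% and 7.14% of all regions. This cut took no island from WT condition 2, the shortest list. In the upper 50% of each list, the complex had 7 regions. Of these, 4 were called in all 4 libraries, beside 36.0% of all regions, and 0 only in deficient cells, beside 7.87%. The read ratio of the window was 1.13 and 1.30 in conditions 1 and 2 with median scaling, and 1.22 in condition 2 with no scaling. Scaling by total island reads, added after the data were seen, put 2 regions with both deficient libraries below both WT. Per kb of called length, the condition 1 log2 ratio of R6 turned from -1.38 to 0.17 and that of R12 from 1.34 to -0.0103. In all, 10 of the 16 ratios of shared regions changed sign per kb, R4, R7, R14 and both of R5 among them, R4 in condition 2 from 0.53 to -0.33 and R14 in condition 2 from -0.27 to 0.23. No region passed 2-fold in both conditions under any scaling, density or joining tried. Apart from the smaller lists' own construction, the cause was not tested. The labels carry no replicate numbers. The edgeR test, added after the data were seen, took condition as the replicate block. It called 0 of the 8 shared regions at an adjusted p of 0.05, beside 0.0355% of all 5637. Without the block edgeR also called 0 of the 8, beside 2 of all 5637. Unadjusted, 2 of the 8 passed 0.05 without the block, beside 7.24% of all. Weak islands, near the lowest reads listed, and the unknown reads of uncalled places limit every call made in 1 genotype only.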
